A study of Mus musculus with 25 samples.

Results

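The co-treatment described here combined trichostatin A (TSA), an inhibitor of histone deacetylases, with UNC0638, an inhibitor of the histone methyltransferase G9a, in mouse embryos made by somatic cell nuclear transfer (SCNT). Its 2 libraries were compared with the 2 libraries of SCNT embryos made in latrunculin A and given neither inhibitor. These were 4 of the 25 libraries of the series. The labels define the groups, but this co-treatment was picked knowing that it lay nearest to fertilized embryos among the chemical groups. Nuclei of cumulus cells, the somatic cells around the oocyte, from BDF1 females were moved into enucleated BDF1 oocytes. Latrunculin A, which blocks actin polymerization, was used in place of cytochalasin B in both groups. The treated embryos received 25 nM TSA for 8 h and 1 µM UNC0638 for 24 h from activation. RNA came from pools of 5 to 10 embryos at the late two-cell stage, 28 to 29 h after activation or insemination. The reference groups were embryos made by in vitro fertilization (IVF) of B6N oocytes with DBA/2 sperm (4 libraries), SCNT embryos made in cytochalasin B (2 libraries), and latrunculin A SCNT embryos given TSA alone, TSA with RK-701 or TSA with A366 (2 libraries each). RK-701 and A366 are also G9a inhibitors and were given at the same dose and time as UNC0638. UNC0638 without TSA is not analysed here, so its own effect and that of the combination cannot be told apart. Nothing in the labels says whether libraries came from separate sessions. P-values therefore rest only on the spread between libraries within groups, estimated jointly over all 25 libraries. This joint spread may understate that of the latrunculin A controls, which differed most from each other.

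G9a, with its partner GLP, mono- and dimethylates lysine 9 of histone H3, a mark of silent chromatin, and histone deacetylases remove the acetyl groups that open chromatin. At the late two-cell stage the mouse embryo switches on its own genome in a large wave called zygotic genome activation. Genes of the *Zscan4* and *Obox* families, and genes driven by or lying near the endogenous retrovirus MERVL, are transcribed in that short window, and SCNT embryos are known to activate a part of this programme poorly.

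The libraries held 13992805 and 14161732 reads on genes with TSA and UNC0638, and 16604899 and 9259726 in latrunculin A control. In control replicate 2, 8.63% of reads were mitochondrial, against 5.85% in control replicate 1 and 3.87% and 4.36% with TSA and UNC0638. The cytochalasin B controls had 10.16% and 8.28%, so this share does not show which latrunculin A control was unusual. The log2 levels of the 2 control libraries correlated at 0.960, the lowest within any group, against 0.983 for the 2 treated libraries. The correlation does not show which of the 2 controls was unusual either. Most counts against latrunculin A control are also given without control replicate 2, which held fewer reads. Of 13 defining cumulus markers, 6 and 3 were at 0 reads in the treated libraries and 5 and 6 in the controls, and the summed level of the wider cumulus list was 415 to 463 normalized counts with treatment and 379 to 412 in control, so the ranges lay close together. Levels are given as normalized counts, that is CPM after TMM scaling of the libraries.

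The promoters of 6 of the genes that rose are shown first, because they come from the *Zscan4*, *Obox* and MERVL-linked groups whose members moved together; they were picked after their values were seen. They run 5′ to 3′ from 250 bases before the annotated start (RefSeq, GRCm38.p6). Capitals mark a TATA box, which is the letters TATAAA, the box with the letters CCAAT, and a homeodomain motif with the letters TAATCC, each on either strand. The promoter of *Tdpoz4*, a MERVL-linked gene also called higher, held none of these motifs and is not printed. The windows are chr7:11005495-11005794 (plus strand) for *Zscan4c*, chr7:11166099-11166398 (minus) for *Zscan4d*, chr7:11397665-11397964 (plus) for *Zscan4f*, chr7:15639728-15640027 (minus) for *Obox3*, chr7:104842534-104842833 (minus) for *Usp17lb*, and chr4:90218570-90218869 (plus) for *Zfp352*.
Zscan4c: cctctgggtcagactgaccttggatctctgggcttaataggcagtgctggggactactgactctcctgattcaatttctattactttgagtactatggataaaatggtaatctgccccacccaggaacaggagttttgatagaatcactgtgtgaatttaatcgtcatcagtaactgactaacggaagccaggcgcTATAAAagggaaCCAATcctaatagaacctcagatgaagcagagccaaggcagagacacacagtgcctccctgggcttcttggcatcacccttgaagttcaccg
Zscan4d: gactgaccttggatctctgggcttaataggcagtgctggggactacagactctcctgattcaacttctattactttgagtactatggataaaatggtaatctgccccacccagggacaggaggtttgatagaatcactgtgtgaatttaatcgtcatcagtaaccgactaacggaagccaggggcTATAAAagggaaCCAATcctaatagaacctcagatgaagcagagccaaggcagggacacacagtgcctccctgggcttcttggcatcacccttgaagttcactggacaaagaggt
Zscan4f: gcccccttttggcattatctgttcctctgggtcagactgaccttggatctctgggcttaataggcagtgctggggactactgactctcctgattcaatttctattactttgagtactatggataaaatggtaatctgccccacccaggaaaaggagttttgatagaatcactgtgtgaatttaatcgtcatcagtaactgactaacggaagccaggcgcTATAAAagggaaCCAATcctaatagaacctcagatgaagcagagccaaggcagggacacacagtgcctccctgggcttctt
Obox3: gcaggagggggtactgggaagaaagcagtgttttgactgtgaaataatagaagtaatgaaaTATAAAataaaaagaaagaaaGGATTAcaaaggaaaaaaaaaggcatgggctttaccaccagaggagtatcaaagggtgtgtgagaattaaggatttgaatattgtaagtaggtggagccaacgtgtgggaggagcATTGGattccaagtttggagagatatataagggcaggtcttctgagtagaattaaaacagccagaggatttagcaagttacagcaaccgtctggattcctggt
Usp17lb: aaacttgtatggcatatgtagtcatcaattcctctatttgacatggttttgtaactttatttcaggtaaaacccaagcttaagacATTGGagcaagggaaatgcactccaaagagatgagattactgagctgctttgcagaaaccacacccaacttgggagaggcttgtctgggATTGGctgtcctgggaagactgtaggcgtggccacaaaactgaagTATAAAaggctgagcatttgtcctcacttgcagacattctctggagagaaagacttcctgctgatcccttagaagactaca
Zfp352: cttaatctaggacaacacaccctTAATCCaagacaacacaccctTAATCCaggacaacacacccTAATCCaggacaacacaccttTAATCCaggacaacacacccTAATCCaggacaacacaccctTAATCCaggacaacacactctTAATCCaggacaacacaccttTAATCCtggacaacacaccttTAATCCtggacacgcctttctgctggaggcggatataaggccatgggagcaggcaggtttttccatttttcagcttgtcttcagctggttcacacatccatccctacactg

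The 3 *Zscan4* promoters each held TATAAA followed by CCAAT, at 54 and 42 bases before the annotated start in *Zscan4c*, 65 and 53 in *Zscan4d* and 31 and 19 in *Zscan4f*. In *Usp17lb* TATAAA lay 31 bases before the start. *Zfp352* held TAATCC 9 times, between 227 and 61 bases before its start, in a tandem repeat. A RefSeq promoter was matched to 14464 of the 25794 genes tested, and to 16 of the *Zscan4*, *Obox* and MERVL-linked genes called higher. Of these 16, 8 held TATAAA, against 9.71% of all matched promoters, 11 (68.8%) held CCAAT against 38.1%, 6 (37.5%) held TAATCC against 6.44%, and 0 held the GC box GGGCGG against 53.1%. Their median ratio of observed to expected CpG was 0.11, against 0.67 for all matched promoters. Both strands were searched, and many of the 16 are near copies of each other, so these shares are a description with no test. The search also took in the E-box CACGTG, the ETS core CCGGAAG, the NRF1 motif GCGCATGC, the Dux core GATTNAATC (which can overlap TAATCC), the Zscan4 motif TGCACAC, the CRE motif TGACGTCA and the KLF motif GGGTGTGGC. The ETS core was in 46.7% of 15 promoters of ribosome biogenesis genes called higher, in 20.5% of 531 promoters of all genes called higher, and in 14.3% of all. Ribosome biogenesis genes that were not called were not counted apart, so this share cannot be assigned to the risers of that list.

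Against latrunculin A control, 949 of 25794 autosomal genes tested (3.68%) were higher with TSA and UNC0638 and 654 (2.54%) were lower, by edgeR's quasi-likelihood test with Benjamini-Hochberg adjusted p under 0.05 and a change over 2-fold. With DESeq2, whose scaling also differs, the counts were 1005 higher and 1086 lower, so the share of calls that were higher, 59.2% in edgeR, rests on the tool. In these pooled embryos fewer cells of a type and less RNA per cell cannot be told apart. The risers were mostly changed by a moderate amount, with 664 of 949 between 2-fold and 4-fold, and 365 had over 100 normalized counts in the treated group. The fallers were lower in level: only 13 of 654 had over 100 normalized counts in control. Without control replicate 2 the counts were 486 higher and 335 lower, and without control replicate 1 they were 1649 and 987. With each of the 4 libraries left out in turn, 298 of the risers and 68 of the fallers stayed called every time.

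**Figure D1:**
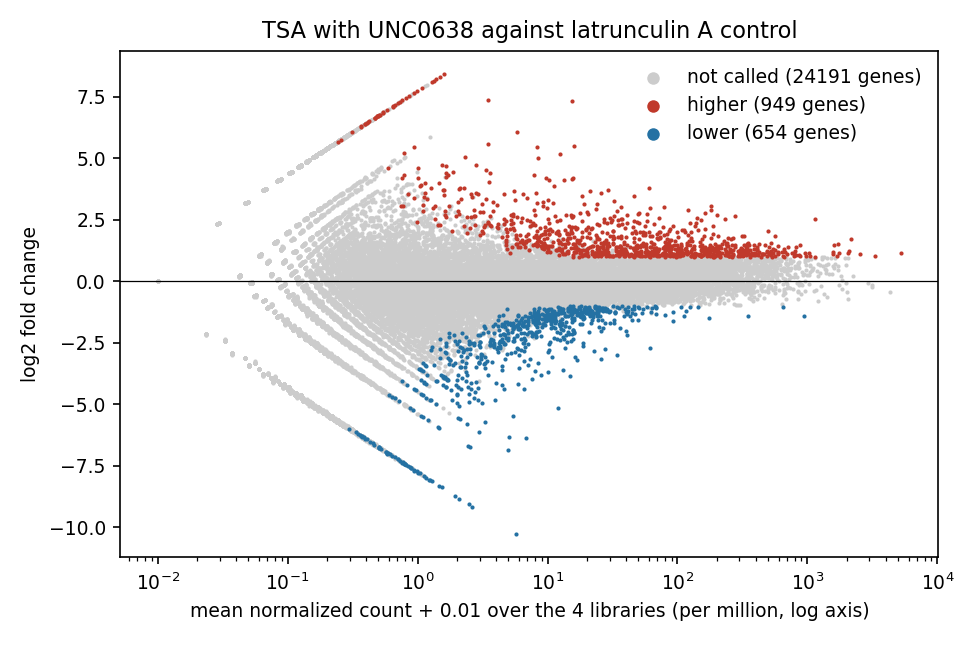
Log2 fold change (y axis) of each autosomal gene between TSA with UNC0638 and latrunculin A control, against its mean normalized count on a log axis. The 949 genes called higher (red) reach to the right of the plot, whereas the 654 called lower (blue) lie mostly at low and middle levels.

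The *Zscan4* genes, which encode zinc finger proteins of the two-cell stage and lie together on chromosome 7, rose as a group. All 6 tested members were called higher, with a median log2 fold change of 3.69. *Zscan4d* (chr7:11161374-11166159, mm10) had 139 and 85.3 normalized counts with TSA and UNC0638 and 10.9 and 5.12 in control, a log2 fold change of 3.78 ± 0.47 (SE, adjusted p = 1.2e-05). *Zscan4a* had 56.5 and 38.9 against 3.53 and 4.38 (3.60 ± 0.36, adjusted p = 8.5e-07). Without control replicate 2 the log2 fold changes were 3.36 for *Zscan4d* and 3.75 for *Zscan4a*. Of the genes called higher, all 949 had groups that did not overlap, as did 649 of the 654 called lower. Such separation therefore adds nothing to a call. *Zscan4c* had 60.2 and 24.3 against 9.23 and 1.49, and *Zscan4f* 22.4 and 7.80 against 2.55 and 0.559. *Zscan4b* was at 0 reads in both controls and at 1.41 and 0.442 with treatment, at least 4.19-fold higher against a floor of 3 reads per library. Of the 6, 3 were called without control replicate 2. Reads of these near-identical genes may be split or lost where only unique alignments were counted.

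*Obox* genes encode homeodomain proteins of the oocyte and early embryo. The 9 tested members took in *Obox4-ps35* and *Obox3-ps4*, which are named as pseudogenes. Of the 9, 5 were higher and none was lower, and these pseudogenes were among the 5 with *Obox3*, *Obox6* and *Obox8*. The log2 fold change of *Obox4-ps35* went from 2.02 to 1.35 without control replicate 2, and its call did not hold. *Obox3* had 369 and 280 normalized counts with treatment and 47.7 and 30.4 in control, a log2 fold change of 3.05 ± 0.29 (adjusted p = 4.9e-07). In IVF embryos it lay between 300.1 and 363. *Obox8* had 581 and 383 against 85.3 and 65.7 (2.67 ± 0.28, adjusted p = 1.6e-06), and *Obox6* 1440 and 1168 against 577 and 347 (1.5 ± 0.25, adjusted p = 0.00035). All 3 stayed called without control replicate 2. The oocyte members *Obox5* (log2 fold change 0.75), *Obox1* (0.63), *Obox2* (0.98) and *Obox7* (0.11) did not pass.

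The MERVL-linked two-cell genes were the largest of these groups. Of 30 tested members, 25 were higher and none was lower, with a median log2 fold change of 1.84. Their summed level was 7633 and 6959 normalized counts with TSA and UNC0638, 2674 and 1751 in control, and 3216 to 4158 in IVF. *Usp17lb*, a deubiquitinase gene of a tandem family, had 2249 and 1638 against 528 and 149 (2.52 ± 0.48, adjusted p = 0.0011). *Tcstv3* had 260 and 303 against 59.4 and 108 (1.75 ± 0.30, adjusted p = 0.00042). *Gm20767* had 134 and 115 against 20.0 and 21.6 (2.58 ± 0.43, adjusted p = 0.00029). These 3 genes stayed called without control replicate 2. In that fit 16 of the 30 were called higher at a median of 1.84, and against cytochalasin B control 20 were.

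Several risers were neighbours, with no more than 1 uncalled gene between them. On chromosome 3, 21 of 27 tested genes between chr3:93628640-94332540, among them *Tdpoz1* to *Tdpoz4*, were higher. On chromosome 13, 10 of 13 at chr13:119893388-120318178 were, among them *Tcstv1*, *Tcstv3* and *AF067061*. The *Zscan4* cluster at chr7:10900740-11188803 held 7 of 9, and 8 of 10 at chr7:14694074-15320260 were pseudogenes of *Obox3* and *Gtpbp4*. These families are made of near copies, so the counts within a run are not independent. With control replicate 2 left out, the counts in these 4 runs were 11, 10, 3 and 9.

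**Figure D2:**
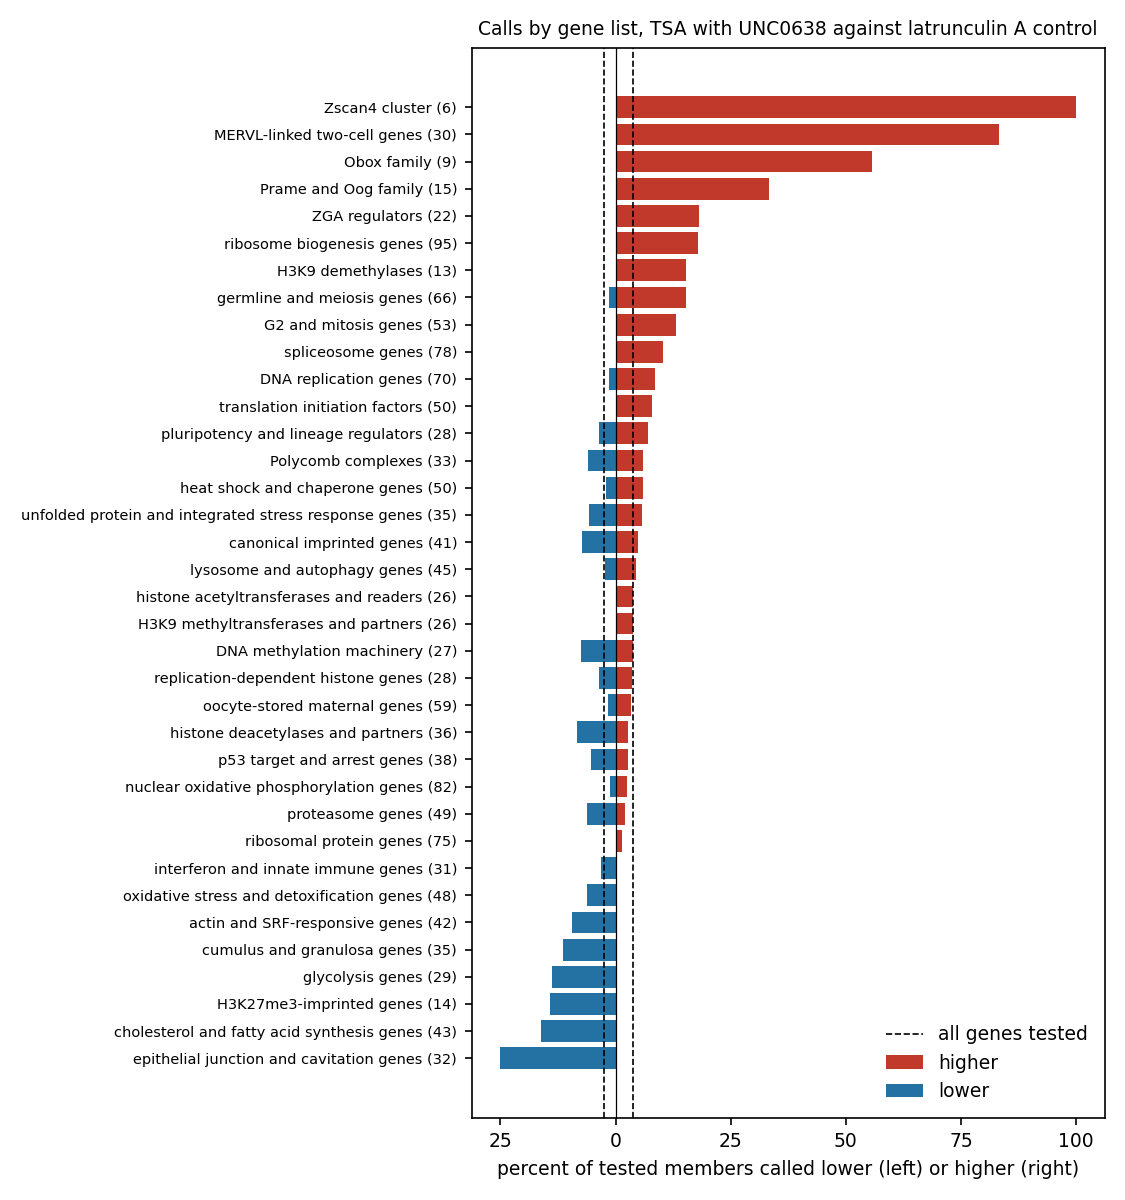
Percent of the tested members of each gene list called higher (red, right) or lower (blue, left) with TSA and UNC0638 against latrunculin A control; the number tested is in brackets and dashed lines give the share over all genes. The *Zscan4*, MERVL-linked and *Obox* lists have the longest red bars, and epithelial junction genes the longest blue bar.

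UNC0638 differed from the other G9a inhibitors, all given with TSA at 1 µM for 24 h, in these two-cell genes among others. The list counts given here were chosen after the values were seen. There were 2 pairs compared, and p-values were also adjusted over both. Against TSA with RK-701, 173 genes (0.671%) were higher with TSA and UNC0638 and 71 (0.275%) were lower. Against TSA with A366, 189 (0.733%) were higher and 30 (0.116%) lower. Adjusted over both pairs the counts were 169 and 68, and 196 and 32. Of the 30 MERVL-linked genes, 15 were higher than with RK-701 and 18 higher than with A366, and none was lower in either. The median log2 differences were 1.78 and 1.91. With each library left out in turn the number called went down to 5 and 2, while the median difference stayed between 1.74 and 1.84 for RK-701 and between 1.76 and 2.12 for A366. The same UNC0638 libraries enter both comparisons.

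*Usp17lc* had 178 and 213 normalized counts with TSA and UNC0638, 26.2 and 41.2 with TSA and RK-701, and 42.1 and 42.9 with TSA and A366. The log2 difference was 2.54 from RK-701 (95% interval 1.88 to 3.19, edgeR adjusted p over both pairs 0.00016) and 2.20 from A366 (1.55 to 2.85, edgeR adjusted p over both pairs 0.00042). *Gm5662* had 749 and 844, against 170 and 170 with RK-701 and 135 and 83.2 with A366. *Zfp352*, a zinc finger gene of the two-cell embryo, had 499 and 536, against 164 and 161, and 153 and 139. In untreated cytochalasin B control *Zfp352* had 394 and 500.1, which overlaps the UNC0638 libraries. For each of the 3 genes both UNC0638 libraries were above all 4 libraries of the other co-treatments. Against latrunculin A control *Usp17lc* stayed called without control replicate 2, and *Gm5662* and *Zfp352* did not. Relative to latrunculin A control, 2 of the 30 were called higher with TSA and RK-701 and 1 with TSA and A366, values that share the same control libraries as the 25 with UNC0638.

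The *Zscan4* and *Obox* genes differed less evenly. *Zscan4d* was at 22.8 and 47.9 with TSA and RK-701 and at 28.0 and 27.4 with TSA and A366, and UNC0638 was higher by 1.66 (0.80 to 2.53) and 2.02 (1.14 to 2.90) on the log2 scale. *Obox3* was higher by 1.14 (0.58 to 1.69) and 1.10 (0.54 to 1.65). *Obox8* did not pass the test, with differences of -0.19 (-0.72 to 0.35) and -0.04 (-0.58 to 0.50), and the intervals allow no difference as large as 2-fold. The *Zscan4* calls, 2 of 6 and 4 of 6, fell to 0 when some single libraries were left out. The *Obox* calls, 1 of 9 against RK-701 and 2 of 9 against A366, fell to 0 in 2 of the 4 such fits for RK-701 and in all 4 for A366.

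**Figure D3:**
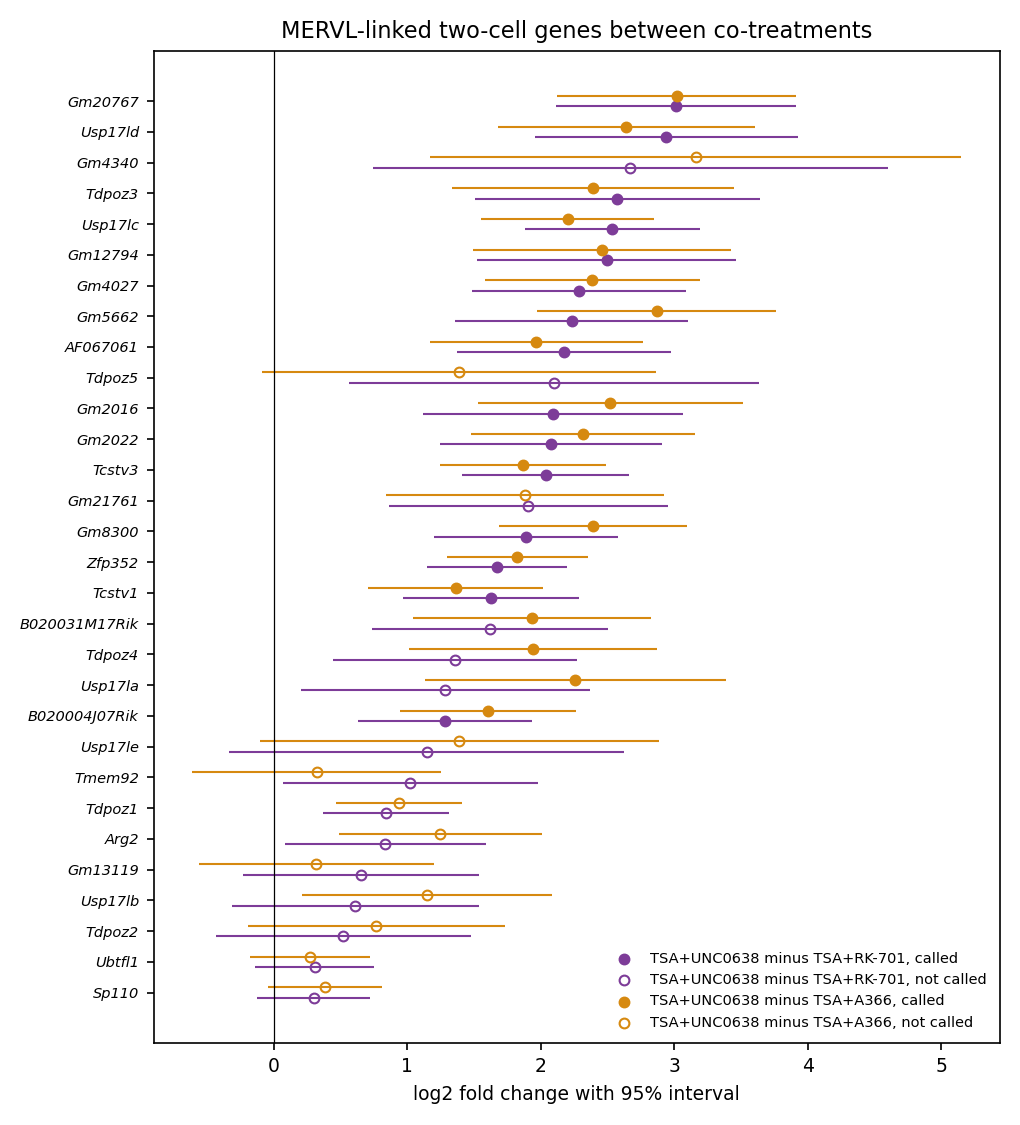
Log2 fold change with 95% interval of each MERVL-linked two-cell gene between TSA with UNC0638 and TSA with RK-701 (purple) or A366 (orange); filled points passed the test. All 30 points of each colour lie above 0.

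Outside the two-cell lists, *Ddit3*, a transcription factor of the integrated stress response, had 32.1 and 47.6 normalized counts with UNC0638, 6.11 and 6.21 with RK-701, and 5.08 and 6.02 with A366. Its log2 differences were 2.69 (1.94 to 3.45) and 2.84 (2.08 to 3.60). In latrunculin A control it had 28.5 and 12.2. *Ercc4*, a DNA repair nuclease, was higher than with RK-701 by 1.65. *Arg1*, arginase, had 9.41 and 13.6 with UNC0638, 64.8 and 58.5 with RK-701 and 38.4 and 36.2 with A366. Its log2 differences were -2.42 (-2.99 to -1.85) and -1.69 (-2.25 to -1.13). *Cers2*, a ceramide synthase, and *Smpd1*, acid sphingomyelinase, were lower than with RK-701 by -1.57 and -2.20 on the log2 scale.

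**Figure D4:**
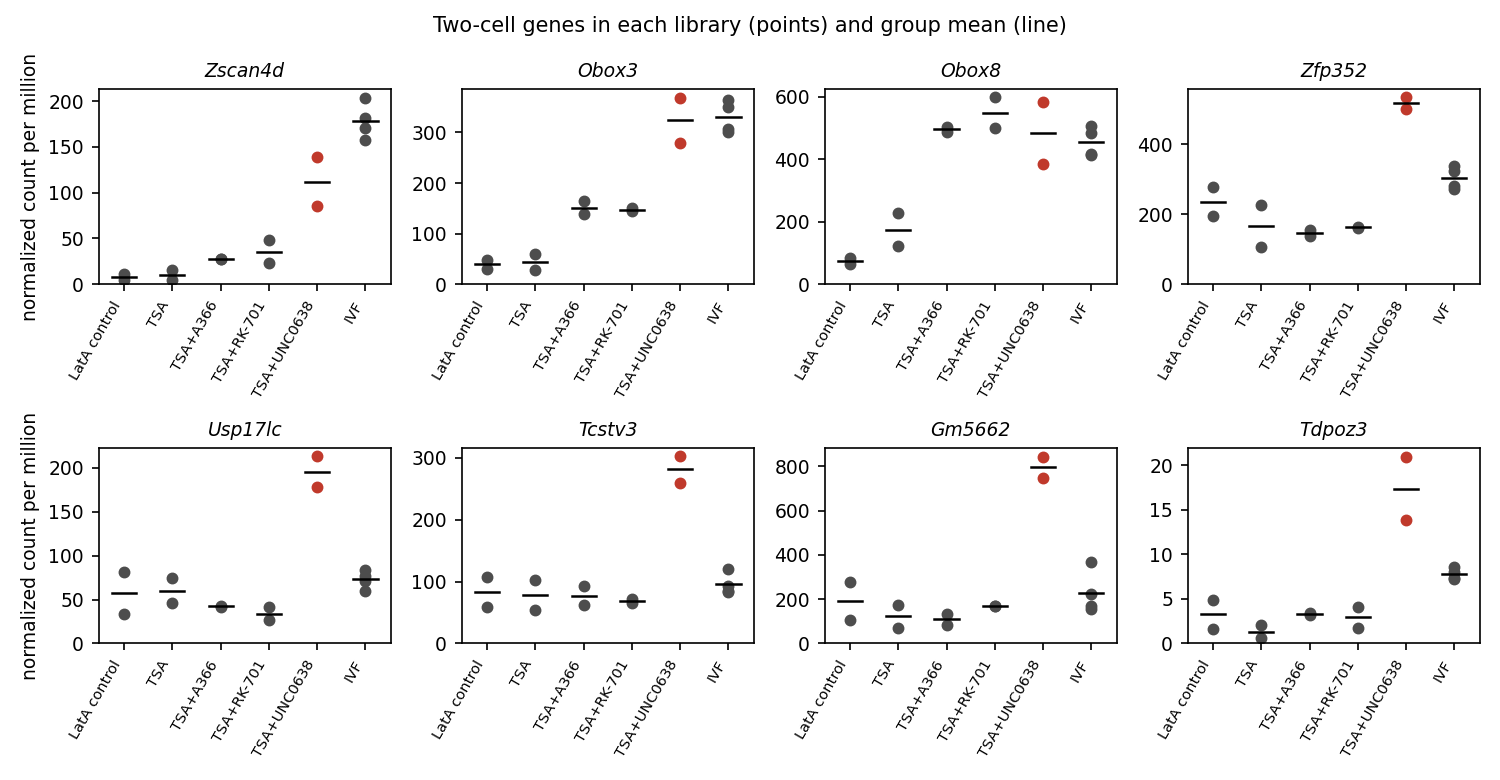
Normalized count of 8 two-cell genes in each library (points) with group means (lines); TSA with UNC0638 is red. For *Zfp352*, *Usp17lc*, *Tcstv3*, *Gm5662* and *Tdpoz3* the UNC0638 libraries lie above every other library shown (cytochalasin B control is not drawn), while *Obox8* lies between 383 and 598 in all 3 co-treatments.

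Against TSA alone, 871 genes (3.38%) were higher with TSA and UNC0638 and 410 (1.59%) were lower. All 6 *Zscan4* genes, 7 of 9 *Obox* genes and 23 of 30 MERVL-linked genes were among those higher. The total depended on single libraries: without TSA replicate 1 it was 156 in place of 1281, and without TSA and UNC0638 replicate 1 it was 457. Without TSA replicate 1, 2 of 6 *Zscan4*, 2 of 9 *Obox* and 8 of 30 MERVL-linked genes were called.

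Compared with IVF embryos, 1428 genes (5.54%) were higher and 1109 (4.3%) lower. The MERVL-linked genes were above IVF in 12 of 30 and below in none, with a median log2 difference of 0.83. The 12 became 5 without TSA and UNC0638 replicate 1, and DESeq2 called 10 higher and 1 lower. *Tcstv3* had 83.2 to 120 normalized counts in the 4 IVF libraries (log2 difference 1.56, edgeR adjusted p = 5.1e-05). *Zscan4a* and *Zscan4f* were below IVF, by -1.57 and -1.70. *Obox3* and *Obox8* differed from IVF by -0.03 (-0.50 to 0.45) and 0.08 (-0.38 to 0.55).

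A count that shares no library with the main comparison came from cytochalasin B control against IVF, where 1758 genes (6.82%) were lower in SCNT and 2108 (8.17%) higher. Of the 1758, 349 (19.9%) rose with TSA and UNC0638 and 18 fell. Of the 2108, 234 (11.1%) fell and 23 rose. Among genes called in neither direction there, 2.63% rose and 1.83% fell. Without control replicate 2 the counts were 212 and 136. The 879 genes that the study had listed as resistant to reprogramming were chosen on libraries of this series, so they are not independent evidence: 338 (38.5%) rose and 5 fell. Most genes of any kind were not called against IVF, with 5.54% of all genes higher and 4.3% lower. Of the 338 resistant genes that rose, 303 were not called against IVF, 18 were lower and 17 higher. When control replicate 2 was left out, 205 rose.

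The overall distance to IVF, taken over log2(TPM + 1) of autosomal genes, was 117 and 122 for TSA and UNC0638 and 143 and 170 for latrunculin A control, so the groups did not overlap and the treated mean was 76.6% of control, or 84.0% without control replicate 2. An exact two-sided permutation test gave p = 0.333, the smallest that 2 against 2 libraries allow. The co-treatment was picked as the nearest to IVF of the chemical groups, so these distances are not independent of that choice. TSA with A366 lay at 120 and 124 and TSA with RK-701 at 124 and 128. The mean with UNC0638 (120 ± 3.61, SD, n = 2) was below that with A366 (122 ± 2.76) by less than the spread between replicates.

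**Figure D5:**
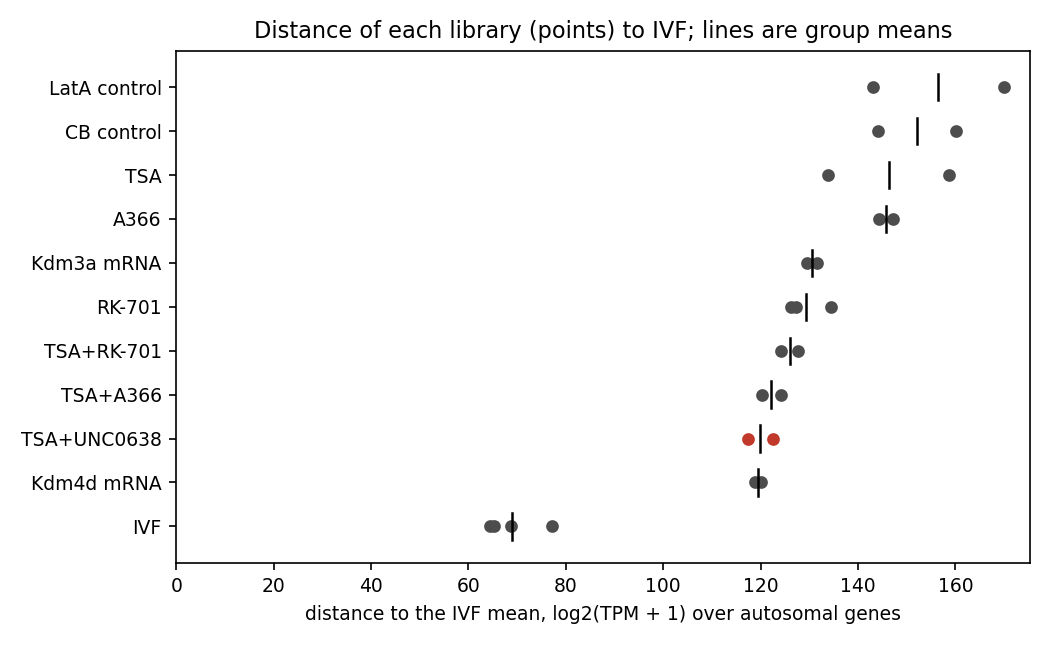
Distance of each library to the IVF mean over log2(TPM + 1) of autosomal genes, with group means as lines; CB is cytochalasin B. The 2 libraries with TSA and UNC0638 (red) lie at 117 and 122, between IVF and latrunculin A control.

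Regulators of zygotic genome activation moved in part: 4 of 22 were higher and none lower, against 3.68% of all genes higher. *Gabpa*, an ETS-family transcription factor, had 759 and 817 normalized counts against 340 and 188 (1.58 ± 0.23, adjusted p = 0.0001), and *Klf5* had 117 and 120 against 57.5 and 57.5 (1.04 ± 0.23, adjusted p = 0.004). *Sp1* and *Nfya* were the others, and fell under the 2-fold limit without control replicate 2. In that fit *Gabpa*, *Klf5* and *Tfap2c*, which was not called in the full fit, were the 3 called. Of the targets of the drugs, *Ehmt2* (G9a) had 23.5 and 26.4 against 30.8 and 30.4, and *Ehmt1* (GLP) 81.2 and 83.3 against 59.7 and 103, neither called. *Hdac1* had 458 and 364 against 248 and 127 (1.13 ± 0.28, adjusted p = 0.011) and was not called without control replicate 2. *Hdac2* and *Hdac3* were not called.

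Growth-related lists rose in smaller shares. Calls also depended on level, with 9.54% of genes over 100 normalized counts in control called higher. These lists were not matched for level. Of 95 ribosome biogenesis genes 17 were higher and none lower, of 78 spliceosome genes 8, of 53 G2 and mitosis genes 7, and of 70 DNA replication genes 6 with 1 lower, against 3.68% of all genes higher. *Ddx18*, an RNA helicase of the nucleolus, had 434 and 335 against 133 and 145 (1.47 ± 0.23, adjusted p = 0.00016). *Riok2*, a kinase of small subunit maturation, had 452 and 344 against 158 and 83.2. *Aurkc*, a kinase of meiosis and early cleavage, had 68.2 and 74.0 against 29.3 and 12.6 (1.75 ± 0.28). Without control replicate 2 the counts were 6, 2, 1 and 1, and without control replicate 1 they were 37, 14, 15 and 14, while the share of all genes called higher was 1.88% and 6.39%. The list counts thus moved in the same direction as the count over all genes.

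The most abundant risers depended on that library too. *Dppa3*, a maternal factor that guards methylation, had 7556 and 6980 against 4170 and 2394 (1.15 ± 0.20, adjusted p = 0.00056). *Kpna2*, an importin, had 3622 and 3078 against 1602 and 421. *Calm2*, *Ccnb1* and *H3f3b* also had their lowest value in control replicate 2. None of these 5 was called without that library.

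Of 66 germline and meiosis genes, 10 were higher and 1 lower, against 3.68% and 2.54% of all genes. Without control replicate 2 it was 7 and 1, against 1.88% and 1.3%. *Hormad1*, a protein of meiotic chromosome axes, had 104 and 92.9 against 11.6 and 24.7 (2.45 ± 0.38, adjusted p = 0.00014). *Terb2*, which ties telomeres to the nuclear envelope in meiosis, had 130 and 145 against 52.4 and 32.5 (1.69 ± 0.25). *Tex19.2* went the other way, at 0.157 and 0.0736 against 15.7 and 4.19, which is 2 and 1 reads against 289 and 45, a ratio of reads pooled over each group and divided by pooled library size of 101 (counting interval 34.1 to 490). Outside the lists, *Sva* stood at 36.5 and 24.7 against 0 and 0.465 (7.33 ± 0.68, adjusted p = 4.9e-07). *Hormad1*, *Terb2*, *Tex19.2* and *Sva* stayed called without control replicate 2.

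Genes that fell included those of epithelial junctions, 8 of 32 with none higher, against 2.54% of all genes lower. *Dsp*, desmoplakin, had 1.41 and 0.957 against 22.2 and 11.2 (-3.81 ± 0.72, adjusted p = 0.0012), and *Ezr*, ezrin, 6.12 and 4.64 against 30.6 and 17 (-2.15 ± 0.43, adjusted p = 0.002). Of the 32, 4 were called without control replicate 2 and 2 without treated replicate 1. *Dsp* and *Ezr* stayed called in both. Of 35 cumulus and granulosa genes 4 fell, with or without control replicate 2, and 2 fell without treated replicate 1. *Ccnd2*, a cyclin of granulosa cells and many other types, had 2.12 and 1.91 against 30.0 and 18.6 (-3.59 ± 0.68, adjusted p = 0.0011), and *Sparc*, a matrix protein, 2.27 and 2.87 against 11.3 and 24.3. The part of carried-over cumulus RNA in this was not tested. The summed level of the list was not lower with treatment, as given above. Its median log2 fold change was -0.84, with 14 members above 0 and 20 below, or -0.18 with genes near 0 reads held at the floor. Of the defining markers, *Ptgs2* had 0.392 and 0.810 against 5.10 and 4.75. *Tnfaip6* (7.53 and 3.83 against 4.34 and 4.38) and *Star* (2.59 and 2.06 against 1.03 and 2.61) overlapped.

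Other lists fell in smaller numbers, with 7 of 43 cholesterol and fatty acid synthesis genes, 4 of 29 glycolysis genes, 4 of 42 actin and SRF-responsive genes and 3 of 48 oxidative stress genes lower and none higher, against 2.54% of all genes lower. The numbers called lower rested on single libraries, most of all on treated replicate 1, as did the count over all genes. Without control replicate 1 each list had members called in both directions. The median log2 fold changes were -0.18, -0.63, -0.51 and -0.29, against -0.08 over all genes. They were -0.12, -0.95, -0.35 and -0.27 without control replicate 2, and -0.09, -0.60, -0.52 and -0.14 without control replicate 1. Without treated replicate 1 they were -0.16, -0.58, -0.49 and -0.24. *Ambp*, a plasma protein precursor, was at 0 reads in both treated libraries and at 11.5 and 11.5 in control, at least 50.5-fold lower. *Psmb8*, an immunoproteasome subunit, was at 0 against 4.99 and 2.7, at least 16.9-fold lower, and *Psmb9*, its partner, had 0.157 and 0.221 against 8.58 and 2.61. The wider proteasome list did not fall with them. Among its 49 tested genes 1 was called higher and 3 lower, and the median log2 fold change was 0.37, with 35 above 0 and 14 below. Of 14 genes imprinted through H3K27me3, 2 were lower and none higher, against 2.54% of all genes lower. *Sfmbt2* had 4.39 and 6.18 against 60.3 and 33.0 (-3.14 ± 0.50, edgeR adjusted p = 0.00019). *Mbnl2* had 3.29 and 5.30 against 26.2 and 22 (-2.48 ± 0.46, edgeR adjusted p = 0.00085). In IVF embryos *Sfmbt2* lay between 3.89 and 4.96 and *Mbnl2* between 0.932 and 2.16. Of the 14 genes, 6 were called higher than IVF and 1 lower with TSA and UNC0638 (median log2 difference 0.72). In cytochalasin B control 6 were called higher and 0 lower (median log2 difference 1.21). Over all genes the shares higher than IVF were 5.54% and 8.17%. *Sfmbt2* and *Mbnl2* stayed called against latrunculin A control with each library left out.

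With the sex chromosomes included, 62 of 1010 X-linked genes (6.14%) were higher and 15 (1.49%) lower, against 3.68% and 2.54% of autosomal genes. Without control replicate 2 fewer X-linked genes were called higher, as over all genes. *Xist*, the RNA that silences an X chromosome, had 8.31 and 20.1 against 42.8 and 73.6 (-2.03 ± 0.45, adjusted p = 0.0049), and *Hprt*, a purine salvage enzyme, 2001 and 1602 against 695 and 561 (1.52 ± 0.20, adjusted p = 3.1e-05). *Hprt* stayed called with each library left out, and *Xist* was not called without control replicate 2 (-1.59, adjusted p = 0.072) or without treated replicate 1 (-1.53, adjusted p = 0.13). Of the 12 X-inactivation genes the other 10 were not called.

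Single genes of other lists moved as well. *Atf7ip2*, a relative of the SETDB1 partner ATF7IP, had 328 and 268 normalized counts against 73.8 and 84.6 (1.91 ± 0.23, adjusted p = 8.6e-06), and lay between 329 and 371 in IVF. *Pramef25*, of the Prame family, had 165 and 116 against 26.9 and 7.73 (3.00 ± 0.51, adjusted p = 0.00037). *Gm9519* had 31.1 and 28.4 against 1.63 and 1.58, with 24.8 to 64.5 in IVF. The calls of these genes held without control replicate 2.

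Among stress and lipid genes that fell, *Nupr1*, a stress-induced chromatin protein, had 46.4 and 43.2 against 181 and 96.4 (-1.63 ± 0.36, adjusted p = 0.0038). *Txnrd1*, thioredoxin reductase, had 11.9 and 20.5 against 50.7 and 46.4 (-1.58 ± 0.33, adjusted p = 0.0024). *Scd2*, a fatty acid desaturase, had 5.02 and 5.59 against 36.5 and 28.3 (-2.61 ± 0.59, adjusted p = 0.0053). These calls held without control replicate 2. *Hmgn1*, a nucleosome binding protein, had 103 and 81.7 against 243 and 275 (-1.49 ± 0.21), and 79.9 to 108 in IVF.

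Against cytochalasin B control in place of latrunculin A control, 841 genes (3.26%) were higher and 417 (1.62%) lower with TSA and UNC0638. *Zscan4d*, *Obox3*, *Gabpa*, *Ddx18*, *Dsp*, *Sfmbt2* and *Ambp* were called in the same direction there. *Dppa3* differed by 0.45 and *Hsp90b1*, a chaperone of the endoplasmic reticulum called lower against latrunculin A control (196 and 189 against 503 and 509), by -0.78, and neither was called.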

How the data were processed

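RNA-seq (SMART-Seq HT, paired-end) of pooled two-cell embryos was analysed from read counts deposited by the authors. Per the labels and file header, reads were trimmed with Trimmomatic, aligned to mm10 with STAR and counted unstranded with featureCounts 1.6.2, and only unique alignments were kept. From these counts, 1 edgeR 4.0.16 quasi-likelihood model (R 4.3.3) over 25 libraries in 11 groups was fitted to the 25794 autosomal genes whose mean was 1 read or more, using TMM scaling and Benjamini-Hochberg adjustment. DESeq2 1.42.0 was an alternative. Repeat rows (1755056) were not used. The fit was tested on simulated data. Libraries, gene lists and members were chosen with earlier results of these data known. Named genes were, per direction, the 12 largest folds (10 reads or more in each library of the higher group, and no Gm, Rik or pseudogene names) and the 8 largest differences, up to 4 called members per list and direction, drug targets, X-inactivation genes, 9 genes the study names, and the 5 lowest p per direction between inhibitors; others in the text, including all *Zscan4*, *Obox* and MERVL-linked genes shown by value and the promoters printed, were chosen after their values were seen. Same-numbered libraries did not deviate together (r = 0.02 between their deviations from group means), so replicate numbers were not taken as pairs. Some genes that the rule names are not reported here. The 95% intervals of log2 differences come from the edgeR standard error and include the spread between libraries. Floors (3 reads) and counting intervals cover counting error only.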

Additional observations from a re-analysis of the deposited data

Results flagged for a closer look

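Of 45 *Zscan4*, *Obox* and MERVL-linked genes, 2 had 1 IVF library far from the other 3, about as many as chance gives at 1 in 20. *AF067061* had 57.7 normalized counts in IVF replicate 3 and 25.7 to 29.0 in the others. *Arg2* had 100.0 in IVF replicate 2 and 119 to 120 in the others. The effect of UNC0638 with TSA differed from that of RK-701 with TSA in 244 genes and from that of A366 with TSA in 219, by edgeR's test of the difference itself.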

How the results depend on the processing

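Counts of calls moved by over 1.5 times under several settings, and the cause was not tested. Fitting only the compared libraries gave 501 higher and 298 lower against latrunculin A control, 482 against TSA with RK-701, 467 against TSA with A366, and 229 and 151 for the genes low and high in cytochalasin B control. DESeq2 gave 1086 lower against latrunculin A control, 470 against RK-701 and 420 against A366. No filter on low counts gave 455 and 422 for those 2 pairs, and cytochalasin B control as reference gave 417 lower. Leaving out 1 library at a time gave 475 to 1649 higher and 158 to 987 lower against latrunculin A control, 1419 to 2336 against IVF, 156 to 1769 against TSA alone, 28 to 125 against RK-701, 17 to 108 against A366, 210 to 456 for genes low in cytochalasin B control that rose, 68 to 261 for those high that fell, and 204 to 363 resistant genes. Each leave-one-out fit for RK-701 and A366 lay below the full count. The distance to IVF was 79.5% of control with a pseudocount of 0.1, 79.7% with genes scaled to unit variance, and 70.6% to 84.0% with 1 library left out. With the replicate block the counts were 855 higher and 509 lower; the labels do not say that numbers pair libraries. *Ehmt1*, not called, changed sign at -0.030 with RLE and -0.021 with DESeq2, and ran from -0.32 to 0.46 with 1 library left out. Of 164 named genes called, 51 stayed called without each of the 4 libraries. RLE scaling moved the median of all genes from -0.08 to -0.13.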

Other observations

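Pseudogenes were called higher in 142 of 3362 tested (4.22%) and lower in 5 (0.149%), and protein coding genes in 682 (4.20%) and 601 (3.70%) of 16234. Among genes over 100 normalized counts in latrunculin A control, 189 of 1981 (9.54%) were higher and 13 (0.656%) lower, against 228 (3.11%) and 281 (3.83%) of 7341 genes between 1 and 10. Without control replicate 2 these counts were 68 and 8 for pseudogenes, 361 and 303 for protein coding genes, 70 and 19 over 100, and 116 and 111 between 1 and 10.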
